A study of Saccharomyces cerevisiae with 4 samples.

Results

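Phosphoinositides are phosphorylated forms of the membrane lipid phosphatidylinositol, and the position of the phosphates marks which compartment a membrane belongs to. In budding yeast (Saccharomyces cerevisiae) the lipid kinase Vps34 makes phosphatidylinositol 3-phosphate on endosomes, and the kinase Fab1 converts part of it on the vacuole into the 3,5-bisphosphate. Sac1, a phosphatase of the endoplasmic reticulum and Golgi, removes phosphate mainly from phosphatidylinositol 4-phosphate. The deletion strains of 9 genes of this system were followed here, out of 5325 strains named on the arrays. They were found by gene symbol or synonym in the platform's annotation and comprise SAC1, a Vps34 branch of 4 genes (VPS34, VPS15, VPS30 and VPS38) and a Fab1 branch of 4 genes (FAB1, FIG4, VAC14 and VAC7). The members were chosen by name with earlier values of these arrays in view, the ratios and plasmid differences of strains included. The plasmid differences below are therefore a description of chosen strains and support nothing by themselves.

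The series is a screen for synthetic lethality with CDC102, a synonym of PSF2, a gene for 1 of the subunits of GINS, a complex of the replication machinery. In a pool of 5896 heterozygous diploid deletion strains, convertible to haploids, the chromosomal CDC102 gene was disrupted with natMX, and the pool was then given a URA3 centromeric plasmid carrying either the mutant cdc102-1 allele or the wild-type CDC102 gene. All pools therefore share the chromosomal disruption, and only the plasmid allele and the temperature differ. The pools were sporulated and the spores kept for 2 days at 30 or 28 degree on minimal plates without uracil, either with nourseothricin (Nat), on which haploids carrying natMX grow, or without it, where single and double mutants grow together. The 4 pools, 1 array each, were cdc102-1 at 30 degree, cdc102-1 at 28 degree, CDC102 at 30 degree and CDC102 at 28 degree; the text of both wild-type samples also calls the sporulated pool cdc102-1, and the titles were followed. No combination had a replicate, so the spread between repeat cultures is unknown.

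Each deletion strain carries a pair of DNA tags, which were amplified from genomic DNA and read on a two-colour tag array, with Cy5 for the plates without Nat and Cy3 for the Nat plates. The deposited value of a spot is a log2 ratio of both dyes. The labels do not state the numerator; Cy5 over Cy3 is likely because the Cy5 sample is listed as source 1. On that reading a higher value means fewer double mutants on the Nat plates relative to the plates without Nat, so the ratio runs opposite to the recovery of double mutants. Strains deleted within 50 kb of CDC102, whose double mutants need a crossover, did not settle the direction: their medians (43 strains) lay between -0.07 and -0.02, close to the other strains. A ratio cannot tell a change on the Nat plates from one on the plates without Nat.

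Values below are means over the spots of a strain, centred on the median of the 5288 strains measured on all 4 arrays, so 0 is the median strain. The SD over strains was 1.03 and 0.73 with cdc102-1 at 30 and 28 degree, and 0.77 and 0.65 with CDC102 at 30 and 28 degree. The array of cdc102-1 at 30 degree had the widest spread and the most named spots without a usable value (727, against 16 to 399 on the others). The first and second tags of a strain differed by a median of 0.30 to 0.35 on these arrays. Across strains the Pearson r between the tags was 0.48 on each cdc102-1 array. It was 0.30 and 0.35 with CDC102 at 30 and 28 degree. SAC1, VPS15, VPS30 and VAC7 had 6 spots for each tag and the other 5 strains had 1, and none of these spots lacked a value.

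SAC1 had the largest ratio of the 9 strains on both cdc102-1 arrays. The SAC1 deletion (YKL212W, chromosome XI) stood at 1.72 and 1.31 with cdc102-1 at 30 and 28 degree, against 0.35 and -0.29 with CDC102. Both cdc102-1 arrays thus lay above both CDC102 arrays, and with CDC102 the strain lay on either side of the median strain. The mean over temperatures was 1.52 with cdc102-1 and 0.03 with CDC102, a difference of 1.49 ± 0.21 (SE). This placed SAC1 66th from the top of the 5288 strains by plasmid difference. Each SE given for a strain is the moderated SE of limma's additive fit over 4 arrays. Moderation draws the variance of a strain towards that of all strains, so the SE is not the strain's own spread.

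The difference of SAC1 had a similar size at both temperatures and in both tags. It was 1.38 at 30 degree and 1.60 at 28 degree. The first tag gave 1.16 and 1.62 at these temperatures, and the second gave 1.60 and 1.58. The lowest of 24 SAC1 spots on the cdc102-1 arrays was 0.92, and the highest of 24 on the CDC102 arrays was 0.56. These spots come from the same 2 arrays for each plasmid, so they are not replicates and add no support. How many other strains had spots without overlap was not counted. Repeat spots of a tag had SDs between 0.06 and 0.23 on an array, which measure spotting and hybridisation only.

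**Figure D1:**
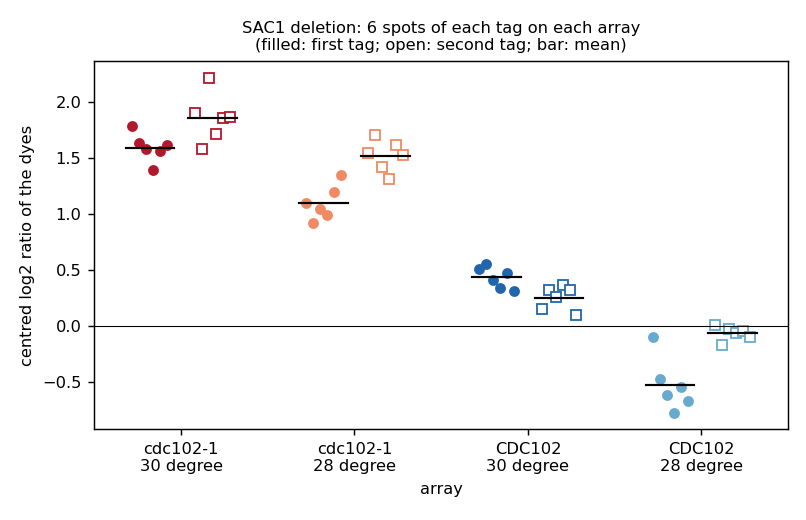
Centred log2 ratio (y axis) of the 6 spots of the first tag (filled circles) and of the second tag (open squares) of the SAC1 deletion on each of the 4 arrays (x axis), with the mean of each tag as a bar. All spots on the cdc102-1 arrays lie at or above 0.92 and all spots on the CDC102 arrays at or below 0.56.

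By rank, SAC1 was at percentile 98.1 and 98.5 of all strains with cdc102-1 at 30 and 28 degree, against 82.3 and 31.1 with CDC102. SAC1 was the only one of the 9 with a difference of at least 1 at 30 degree (7.77% of all strains), at 28 degree (3.93%) or at both (1.32%). A difference of -1 or less at either temperature was found for 0 of the 9 and for 10.1% of all strains.

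The plasmid term was fitted with limma on all 5288 strains, with temperature as a second term. Of the 9, 0 strains passed an adjusted p of 0.05, and 0% of all strains did (smallest adjusted p 0.553). An unadjusted p under 0.05 was found for 462 strains (8.74%), among them 1 of the 9, SAC1. The fit was also limited to the 3163 strains whose first and second tags lay within 1 of each other on all arrays. There 128 strains (4.05%) passed the adjusted p, SAC1 among them and none of the other 7 members in that fit. SAC1 had been chosen with its plasmid difference in view, and the limit was drawn from the same arrays. Its call there therefore supports nothing. Counted by order alone, both cdc102-1 arrays lay above both CDC102 arrays for 3 of the 9, SAC1, VPS38 and VAC14, and for 22.2% of all strains. Both lay below for 0 of the 9 and for 19.8% of all strains. With 2 arrays for each plasmid an exact two-sided permutation test of a single strain cannot go below a p of 0.333.

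**Figure D2:**
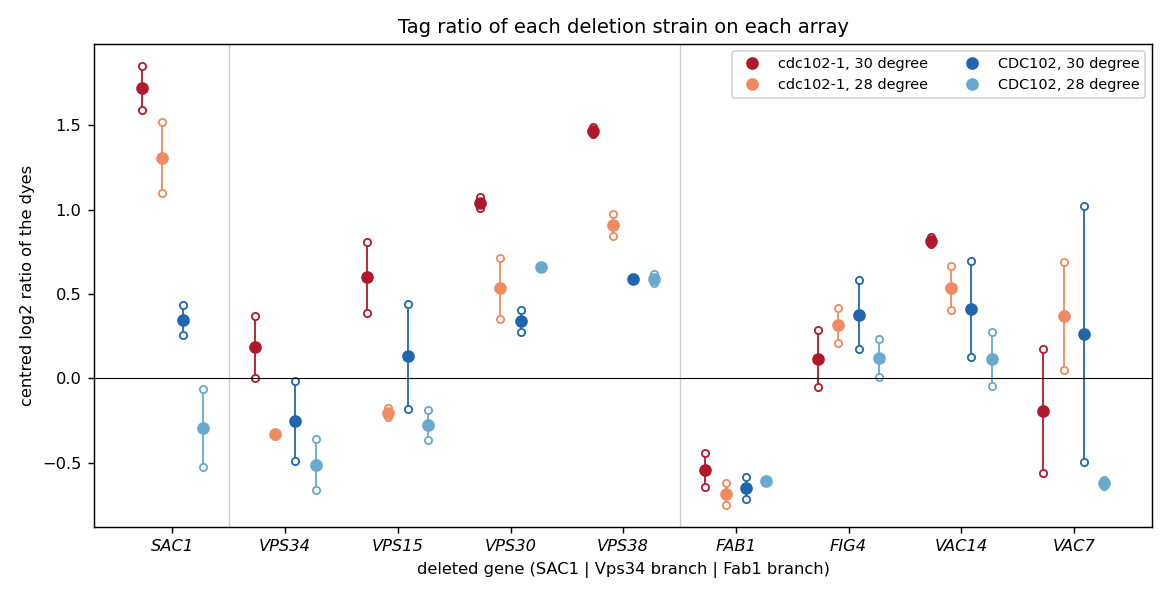
Centred log2 ratio (y axis) of each of the 9 deletion strains (x axis) on the 4 arrays, where filled points are the strain mean and open points joined by a line are its first and second tag. SAC1 has the widest gap between plasmids, VPS38 and VPS30 lie above the median strain on every array, and FAB1 lies near -0.6 on every array.

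The Vps34 branch consists of the kinase, its anchor and the subunits that give the complex its place in the cell. VPS34 (YLR240W, chromosome XII) encodes the kinase itself. Its deletion stood at 0.18 and -0.33 with cdc102-1 at 30 and 28 degree, against -0.25 and -0.51 with CDC102. The groups overlapped, and the mean difference was 0.31 ± 0.21 (SE), from 0.44 at 30 degree and 0.18 at 28 degree. It was 0.05 when the cdc102-1 array at 30 degree was left out and 0.57 when that at 28 degree was. Fits with an array left out had no temperature term, so their values mix temperature into the plasmid difference. VPS15 (YBR097W, chromosome II) encodes the protein kinase-like partner that holds Vps34 on membranes. Its deletion stood at 0.60 and -0.20 with cdc102-1, against 0.13 and -0.28 with CDC102, at 30 and 28 degree. The mean difference was 0.27 ± 0.23 (SE), from 0.47 at 30 degree and 0.07 at 28 degree. Without the temperature term, it became -0.13 without the cdc102-1 array at 30 degree and 0.67 without that at 28 degree. These strains, which lack the core pair, lay below or near the median strain on most arrays.

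VPS30 and VPS38 encode subunits that join the core pair: Vps30 (Atg6, the yeast Beclin 1) is in both Vps34 complexes, and Vps38 belongs to the endosomal complex II. The VPS30 deletion (YPL120W, chromosome XVI) stood at 1.04 and 0.53 with cdc102-1 at 30 and 28 degree, against 0.34 and 0.66 with CDC102. Its groups overlapped. The mean difference was 0.29 ± 0.30 (SE) and became -0.07 with quantile normalization. The VPS38 deletion (YLR360W, chromosome XII) stood at 1.47 and 0.91 with cdc102-1, against 0.59 and 0.59 with CDC102, at 30 and 28 degree. Its groups did not overlap, its mean difference was 0.60 ± 0.25 (SE), and its tags never lay more than 0.13 apart. The difference was 0.11 with quantile normalization and 0.32 without the cdc102-1 array at 30 degree and the temperature term.

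VPS30 and VPS38 shared a high ratio with either plasmid. Of all strains, 26.7% lay above the median strain on all 4 arrays, and 4 of the 9 did: VPS30, VPS38, FIG4 and VAC14. Averaged over the arrays, VPS38 stood at 0.89 and VPS30 at 0.64, ranks 100 and 224 from the top, which brackets SAC1 at 0.77 (rank 142). With CDC102 alone, VPS38 was at percentile 95.4 and 96.5 at 30 and 28 degree, and VPS30 at 82.1 and 97.6. The high level of VPS38 was thus already present with the wild-type plasmid on both arrays, where SAC1 averaged 0.03. For VPS30 the contrast with SAC1 rested on the CDC102 array at 28 degree, 0.66 against -0.29. With CDC102 at 30 degree, VPS30 (0.34) was level with SAC1 (0.35) and below VAC14 (0.41) and FIG4 (0.38).

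Within the branch, the mean of VPS30 and VPS38 exceeded that of VPS34 and VPS15 on every array. The gap was 0.86 and 0.99 with cdc102-1 at 30 and 28 degree, and 0.53 and 1.02 with CDC102. This split of the branch was chosen after its values were seen, so it is a description of the 4 strains. On each array both VPS30 and VPS38 lay above both VPS34 and VPS15.

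All 4 strains of the branch had a larger plasmid difference at 30 than at 28 degree. The share of all strains with this order was not counted. Their median was just above 0, so the order was the more common one among them too. The difference at 30 degree minus that at 28 degree was 0.26 to 0.83 in the branch. Over all strains its median was 0.03 and its SD 0.92. By absolute size the 4 strains were at percentiles 36.7 to 78.1 of all strains. The branch mean of the difference was 0.62 ± 0.21 at 30 degree (SD over 4 strains, range 0.44 to 0.88) and 0.11 ± 0.19 at 28 degree (range -0.13 to 0.32). The cdc102-1 array at 30 degree is also the one with the widest spread, and its part in the larger difference was not tested. The branch mean was 0.07 without that array, in a fit without the temperature term, and 0.37 with all arrays. By rank, VPS34 was at percentile 62.5 and 29.4 with cdc102-1 at 30 and 28 degree, and at 34.4 and 22.6 with CDC102.

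The Fab1 branch holds the 3-phosphate 5-kinase and the proteins that control it. FAB1 (YFR019W, chromosome VI) encodes the kinase. Its deletion stood at -0.54 and -0.68 with cdc102-1 at 30 and 28 degree, against -0.65 and -0.61 with CDC102. It was the 1 strain of the 9 that lay below the median strain on all 4 arrays, as 27.6% of all strains did. Its 4 values spanned 0.14, the 138th smallest span of the 5288 strains, and its mean plasmid difference was 0.02 ± 0.21 (SE), which became -0.03 without centring. Its percentile was between 18.4 and 26.1 on all arrays.

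FIG4 (YNL325C, chromosome XIV) encodes a Sac-domain phosphatase that acts on the Fab1 product and is also needed for full Fab1 activity. Its deletion stood at 0.12 and 0.31 with cdc102-1 at 30 and 28 degree, against 0.38 and 0.12 with CDC102. The groups overlapped, with a mean difference of -0.03 ± 0.24 (SE). SAC1, which also encodes a phosphatase of the Sac family, had a mean difference of 1.49.

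VAC14 (YLR386W, chromosome XII) encodes the scaffold that brings Fab1 and Fig4 together. Its deletion stood at 0.82 and 0.54 with cdc102-1 at 30 and 28 degree, against 0.41 and 0.11 with CDC102. The groups did not overlap, and the difference was nearly the same at both temperatures, 0.40 at 30 and 0.42 at 28 degree (mean 0.41 ± 0.20, SE). With quantile normalization the mean was 0.26. The second tag alone gave no overlap either, while the first tag did overlap between plasmids. Although Fig4 and Vac14 work in 1 complex with Fab1, the VAC14 deletion exceeded the FAB1 deletion by 1.36 and 1.22 with cdc102-1 and by 1.06 and 0.73 with CDC102, at 30 and 28 degree. The FIG4 deletion exceeded it by 0.66 and 1.00 with cdc102-1 and by 1.03 and 0.73 with CDC102.

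VAC7 (YNL054W, chromosome XIV) encodes a vacuolar membrane protein that activates Fab1. Its deletion stood at -0.19 and 0.37 with cdc102-1 at 30 and 28 degree, against 0.26 and -0.62 with CDC102. With cdc102-1 it was lower at 30 degree (-0.46) and higher at 28 degree (0.99), so the mean difference of 0.27 ± 0.45 (SE) stands for neither temperature. Its tags disagreed most among the 9. With CDC102 at 30 degree the first tag read 1.02 and the second -0.50, a gap of 1.52, while the 6 spots of each tag there lay between 0.80 and 1.24 and between -0.61 and -0.33. Repeat spots of a tag were therefore close together while the tags were apart.

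SAC1 and the branches were then set side by side on each array. SAC1 exceeded the mean of the Vps34 branch by 0.90 and 1.08 with cdc102-1 at 30 and 28 degree, while with CDC102 it exceeded it by 0.14 at 30 degree and lay below it by a signed -0.41 at 28 degree. Against the mean of the Fab1 branch the gap was 1.67 and 1.17 with cdc102-1, and 0.25 and -0.04 with CDC102, at 30 and 28 degree. With CDC102, SAC1 thus lay within the range of both branches, and with cdc102-1 it lay above every strain of both.

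**Figure D3:**
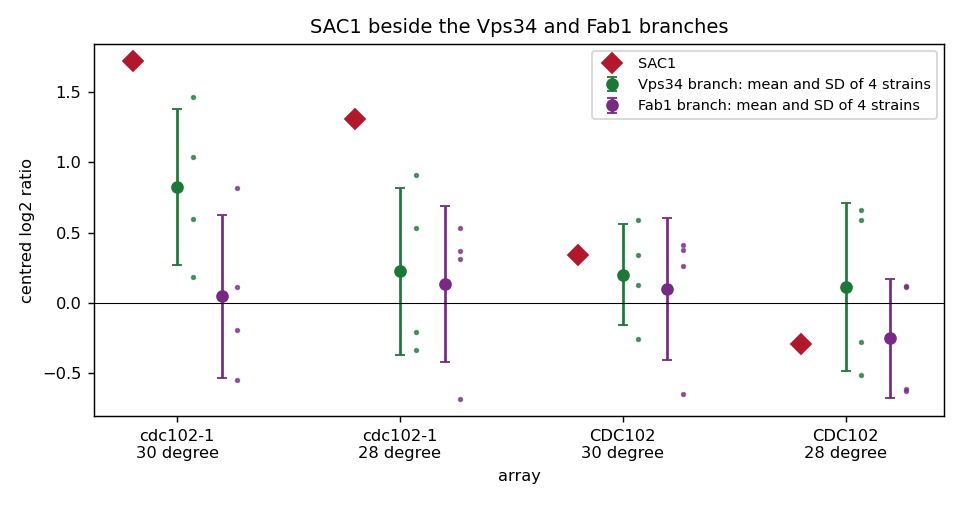
Centred log2 ratio (y axis) of SAC1 (diamond) and of the mean ± SD over the 4 strains of the Vps34 branch and of the Fab1 branch (circles with bars, single strains as small points) on each array (x axis). SAC1 stands above every strain of both branches on the cdc102-1 arrays, at 1.72 and 1.31.

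Expressed as plasmid differences, SAC1 (1.49) exceeded the Vps34 branch mean (0.37 ± 0.16, SD over 4 strains) by 1.12 and the Fab1 branch mean (0.17 ± 0.21) by 1.32. The excess over the Vps34 branch was 0.76 at 30 degree and 1.49 at 28 degree, and that over the Fab1 branch was 1.43 and 1.22. The SDs describe the spread among deletions of different genes and are not a replicate error. The median of the 9 strains was 0.29, beside 0.01 for all strains.

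**Figure D4:**
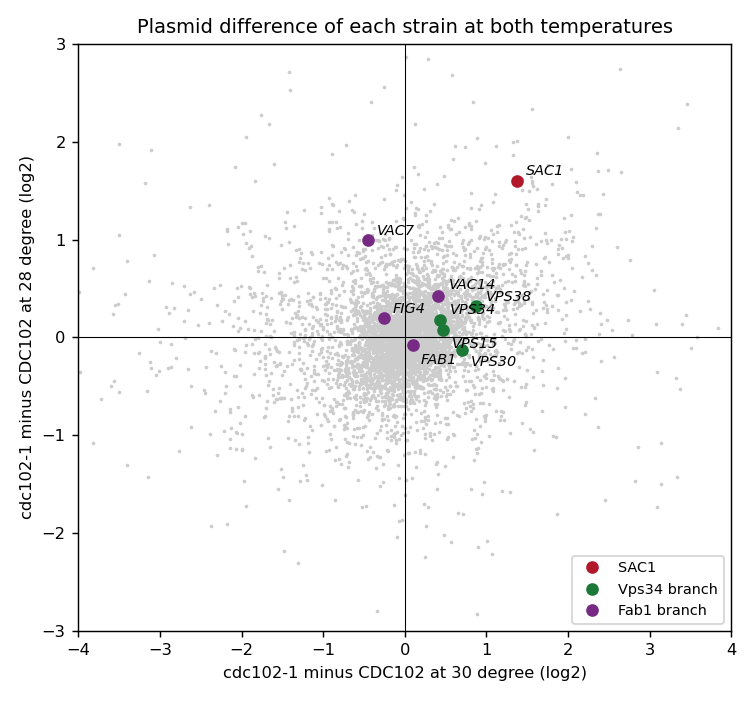
Difference in centred log2 ratio, cdc102-1 minus CDC102, at 30 degree (x axis) and at 28 degree (y axis) for all strains (grey; 23 lie outside the axes) and the 9 named strains (coloured by branch). SAC1 lies at 1.38 and 1.60, the Vps34 branch lies to the right of 0, and VAC7 lies at -0.46 and 0.99.

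Seen across all strains, 5 of the 9 had a difference above 0 at both temperatures (SAC1, VPS34, VPS15, VPS38 and VAC14), beside 30.4% of all strains. None of the 9 was below 0 at both, beside 27.6% of all strains. The other 4, VPS30, FAB1, FIG4 and VAC7, had opposite signs at the temperatures, as 42% of all strains did.

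Temperature differences of the 9 strains were all under 1 on the log2 scale. In the same limma fit, 0 of the 9 and 0% of all strains passed an adjusted p of 0.05 for 30 against 28 degree (smallest 0.73). An unadjusted p under 0.05 was found for 295 strains (5.58%) and 0 of the 9. A ratio higher by at least 1 at 30 degree with either plasmid was found for 0 of the 9 and for 6.45% of all strains.

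The ratio was higher at 30 than at 28 degree with each plasmid for 5 of the 9 strains, beside 26% of all strains. VPS15 had the largest mean difference, 0.61 ± 0.23 (SE), from 0.80 with cdc102-1 and 0.41 with CDC102. SAC1 followed at 0.53 ± 0.21 (SE), from 0.41 with cdc102-1 and 0.64 with CDC102, and VPS34 at 0.39 ± 0.21 (SE), from 0.52 and 0.26. VAC14 differed by 0.28 and 0.30. For VPS38 the difference was 0.56 with cdc102-1 and 0.00 with CDC102, so its count among the 5 rests on cdc102-1.

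The strains whose 4 values were nearest to those of SAC1 by Euclidean distance, among 4835 other strains with both tags on all arrays, came from other processes. In order they were deleted for CTK3 (a subunit of a kinase of RNA polymerase II), CKB2 (a regulatory subunit of casein kinase 2), SEC72 (protein import into the endoplasmic reticulum), FTR1 (iron uptake) and SCJ1 (a chaperone of the endoplasmic reticulum). Their distances were between 0.37 and 0.47, where the median strain was at 2.26. CKB2 stood at 1.82 and 1.42 with cdc102-1 at 30 and 28 degree, against 0.34 and 0.06 with CDC102. Taken over the 8 tag values, the nearest were SCJ1, CKB2, VPS35 of the retromer, WHI2 and HOM6. Of the other 8 strains of the system, VPS38 was nearest at 1.03 and FAB1 was farthest at 3.19. Among all strains measured on the 4 arrays, not only the 4835, 126 were nearer to SAC1 than VPS38.

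Other genes of phosphoinositide metabolism were read from 6 lists of 38 genes, chosen with earlier results of these arrays known, of which 36 had values on all arrays. Their median plasmid difference was 0.21, beside 0.01 for all strains. A difference above 0 at both temperatures was found for 17 of the 36 and one below 0 for 3, beside 30.4% and 27.6% of all strains. In limma's test 0 of the 36 passed the adjusted p, and 7 had an unadjusted p under 0.05 (8.74% of all strains). None of the 36 had a larger mean difference than SAC1, which was 66th of all 5288 strains. A difference of at least 1 at both temperatures was found for 0 of the 36 and for 1.32% of all strains. INP51 came close, with 1.245 at 30 degree and 0.996 at 28 degree. At 30 degree alone, MSS4 (3.09), INP53 (1.88), ATG18 (1.70) and SCS2 (1.48) exceeded SAC1 (1.38), which was 232nd of all strains there. At 28 degree none of the 36 exceeded SAC1 (1.60), which was 50th of all strains there.

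Among other phosphatases, INP53 and INP51 had the largest differences of their list. INP53 and INP51 encode synaptojanin-like inositol phosphatases. The INP53 deletion stood at 1.65 and 0.66 with cdc102-1 at 30 and 28 degree, against -0.24 and -0.20 with CDC102, a difference of 1.37 ± 0.35 (SE). The INP51 deletion stood at 1.72 and 1.31 with cdc102-1, the same to 2 decimals as SAC1, against 0.48 and 0.32 with CDC102, a difference of 1.12 ± 0.21 (SE). The tags of both strains gave similar differences, 1.30 and 1.44 for INP53 and 1.17 and 1.07 for INP51. INP52, which encodes the third protein of this kind, differed by -0.16 (-0.33 at 30 degree and 0.00 at 28 degree). YMR1, a myotubularin-type phosphatase of the 3-phosphate, differed by 0.23 ± 0.20 (SE). The list of 6 phosphatases, which also held INP52, INP54 and TEP1, had a median of 0.22. A difference above 0 at both temperatures was found for 3 of them and one below 0 for 0, beside 30.4% and 27.6% of all strains.

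The 7 measured strains of the other kinases and their partners had a median of 0.20, with 1 higher and 1 lower at both temperatures, beside 30.4% and 27.6% of all strains. The mean differences of MSS4 (0.68), the gene of the 4-phosphate 5-kinase, and of PIK1 (0.62), a 4-kinase gene, each combined opposite signs at the temperatures. YPP1, a partner of the 4-kinase Stt4, differed by 0.32 ± 0.21 (SE), and LSB6, a type II 4-kinase, by -0.08 ± 0.20 (SE). Several genes of the lists are essential, so that haploids deleted for them are not viable. Among these, the means over the 4 arrays were -1.11 for PIK1, -1.92 for STT4 (also a 4-kinase) and -1.49 for FRQ1 (a Pik1 partner), but -0.04 for MSS4, 0.28 for YPP1 and -0.21 for PIS1, the phosphatidylinositol synthase.

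Of the proteins that bind phosphatidylinositol 3-phosphate or the 3,5-bisphosphate, 3 of 6 were higher at both temperatures and 0 lower, beside 30.4% and 27.6% of all strains, with a list median of 0.53. PEP7 (Vac1), which tethers vesicles at endosomes, stood at 1.00 and 0.50 with cdc102-1 at 30 and 28 degree, against -0.32 and -0.06 with CDC102, a difference of 0.94 ± 0.29 (SE). VPS27, which starts the sorting of ubiquitinated cargo on endosomes, stood at 1.31 and 0.84 with cdc102-1, against 0.17 and 0.33 with CDC102, a difference of 0.83 ± 0.26 (SE). SNX3, a sorting nexin, differed by 0.45 ± 0.25 (SE). For PEP7, VPS27 and SNX3 both cdc102-1 arrays lay above both CDC102 arrays, as they did for 22.2% of all strains.

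Phosphatidylinositol 4-phosphate is the main substrate of Sac1. The list of its binders and of membrane contact site proteins held 13 measured strains, with a median of 0.12 and a range from -0.28 to 1.11. Of these, 8 were higher and 2 lower at both temperatures, beside 30.4% and 27.6% of all strains. The 8 include differences near 0, such as TCB1 with 0.002 at 30 degree and 0.21 at 28 degree. SCS2, a protein of the endoplasmic reticulum that anchors contact sites, stood at 2.02 and 1.31 with cdc102-1 at 30 and 28 degree, against 0.54 and 0.57 with CDC102, a difference of 1.11 ± 0.29 (SE). SWH1 (OSH1) differed by 0.80 ± 0.25 (SE) and KES1 (OSH4) by 0.66 ± 0.20 (SE), both oxysterol-binding protein homologues. The tags of SWH1 were unequal, 0.22 for the first and 1.38 for the second, while those of KES1 gave 0.66 and 0.65. The tricalbins TCB1, TCB2 and TCB3 lay between -0.14 and 0.11.

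The remaining lists were small. ATG14, the subunit that replaces Vps38 in the autophagy complex I of Vps34, differed by 0.24 ± 0.24 (SE), 0.47 at 30 degree and 0.00 at 28 degree, and its deletion stood at 0.61 and 0.07 with cdc102-1 and 0.14 and 0.07 with CDC102. It thus lacked the high level of VPS38 with CDC102. PLC1, phospholipase C, differed by 0.55 ± 0.31 (SE) from ratios below the median strain on all 4 arrays.

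**Figure D5:**
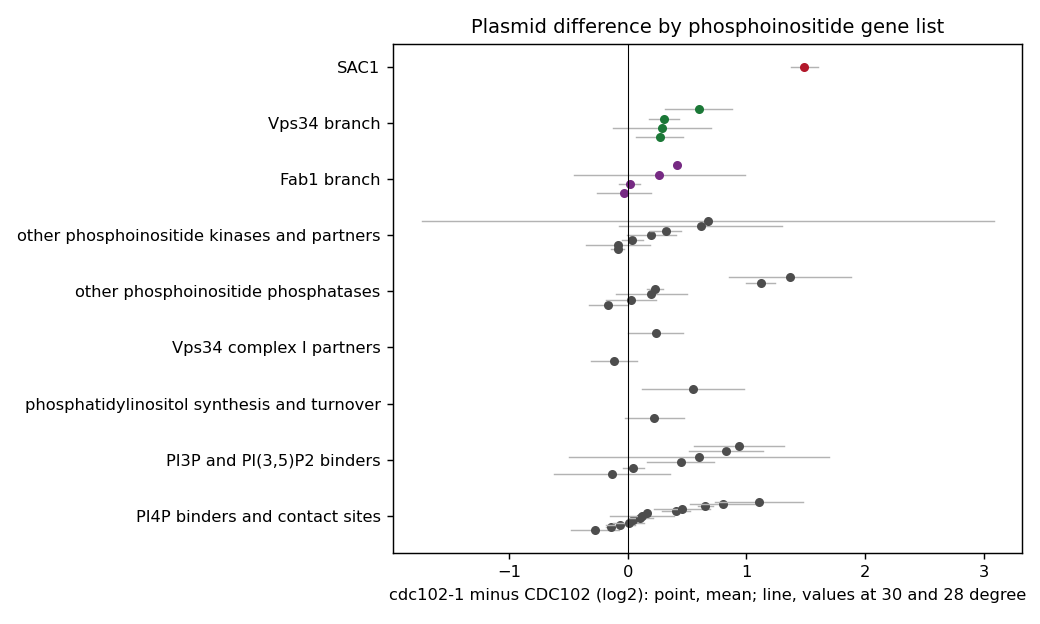
Mean plasmid difference in centred log2 ratio, cdc102-1 minus CDC102 (x axis, points), with a line from the value at 30 degree to that at 28 degree, for each measured strain of each list (rows). SAC1 is at 1.49, and the highest other strains are INP53 at 1.37, INP51 at 1.12 and SCS2 at 1.11.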

How the data were processed

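Hopkins tag arrays were hybridised with tags that had been PCR-amplified from genomic DNA, then scanned (GenePix 4000B) and quantified (GenePix 5.1), per the labels. The values deposited by the authors are log2 ratios of both dyes per spot, rounded as ratios to 0.01; background correction and normalization are not stated in the sources at hand, and no spot intensity was used, so signal over background is unknown. The 10 cells with a stand-in ratio of 1000000 were left out. Of 22575 spots, 18794 had 1 gene symbol, 0 several and 3781 none, and 5321 of 5325 gene identifiers matched the R64 gene table, which also gave synonyms, chromosomes and neighbours of CDC102. Spots of the same gene 10971 numbers apart were taken as the first and second tag of a strain; which is the uptag is not told.

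Spots were averaged per strain and array and centred on the strain median (-0.27, -0.19, -0.20 and -0.17 removed, cdc102-1 and then CDC102, 30 degree before 28). The fit was limma 3.58.1 in R 4.3.3 with additive plasmid and temperature terms over 5288 strains and Benjamini-Hochberg adjustment. It has 1 residual degree of freedom plus 2.3 borrowed across strains, and its p-values reflect only how these arrays vary, possibly for technical reasons. It was run on simulated strains with no temperature or array effect. That checked the recovery of set plasmid differences, and not whether its p-values hold for these arrays. The 9 strains, the 6 lists and the rules were chosen with earlier results of these data known. Named beside the 9 were the 5 strains nearest SAC1 by either distance and up to 3 strains a list, those with the largest difference of like sign at both temperatures; PIK1, STT4, FRQ1 and the tricalbins were named after their values were seen. EFR3 and OSH7 were not analysed here. Alternatives were other centring, spot averaging, single tags, tag-agreeing strains, other fit terms and priors, and leaving out arrays.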

Additional observations from a re-analysis of the deposited data

Results flagged for a closer look

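In 4 of the 9 strains the plasmid difference had opposite signs at the temperatures, which was not tested because each combination has 1 array. Given as the difference at 30 degree minus that at 28 degree, it was -1.45 for VAC7 (differences of -0.46 and 0.99), 0.83 for VPS30 (0.70 and -0.13), -0.45 for FIG4 (-0.26 and 0.19) and 0.18 for FAB1 (0.10 and -0.07). Opposite signs were found for 42% of all strains, and by absolute size VAC7 was at percentile 90.6 of all strains and VPS30 at 78.1. For VAC7 the first tag gave -0.85 and 1.33, while the second gave only -0.06 at 30 degree and 0.65 at 28 degree. The opposite signs of VAC7 thus rest mainly on its first tag, and its tags lay up to 1.52 apart. The second tag of VPS30 gave 0.67 and 0.05.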

How the results depend on the processing

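The plasmid difference of SAC1 stayed above 0 under the 11 alternatives that can change its value. It was 1.10 with quantile normalization, which also gave 0.96 for its excess over the Fab1 branch. Leaving out 1 array at a time, without the temperature term, gave 1.17 to 1.81 for SAC1, 0.85 to 1.40 for its excess over the Vps34 branch and 1.07 to 1.57 over the Fab1 branch. The branch means ran from 0.07 to 0.66 for Vps34 and from -0.01 (without CDC102 at 28 degree) to 0.34 for Fab1. Temperatures taken singly, chosen after seeing the data, gave -0.05 for the Fab1 branch at 30 degree and 0.38 at 28 degree. Of 99 values of the 9 strains under these alternatives, 15 changed sign: 5 of FAB1, 4 of FIG4, 3 of VAC7, 2 of VPS30 and 1 of VPS15. No strain passed the adjusted p in the plasmid or temperature test under any alternative, except that 128 of 3163 strains passed for the plasmid (96 higher and 32 lower) in the fit limited to strains with tags within 1 of each other. SAC1 was among them (limma adjusted p 0.00343), as were INP51 (0.0128), SCS2 (0.022) and PEP7 (0.0456). VAC7 was not in that fit, and the other 7 of the 9 had adjusted p of 0.179 or above. The cause of the change was not tested. These strains had been chosen with results known, so their adjusted p values in that fit support nothing. Unadjusted p under 0.05 counted 462 strains for the plasmid with all arrays and 197 (without CDC102 at 30 degree) to 878 (without cdc102-1 at 28 degree) with 3, and 295 and 109 to 680 for temperature. The temperature term pairs the arrays by temperature, and without it 0 strains passed for the plasmid and 462 had an unadjusted p under 0.05. Signal over background is unknown, and having 4 arrays limits the precision.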

Other observations

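Beside the members of the system, 3 of the 36 measured strains of the lists had plasmid differences of opposite sign and a size over 1 at 30 degree. They are named after their values were seen. Of all strains, 42% had opposite signs and 7.77% had a difference of at least 1 at 30 degree. How many had both was not counted. MSS4, the essential gene of the 4-phosphate 5-kinase, had 3.09 at 30 degree and -1.74 at 28 degree. ATG18, which binds the Fab1 product and regulates Fab1, had 1.70 and -0.49. PIK1 had 1.30 and -0.07.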
